A study of Mus musculus with 9 samples.

Results

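The bone morphogenetic protein (BMP) genes described here are 10 genes chosen by name: the inhibitor of DNA binding genes Id1, Id2, Id3 and Id4, the pseudoreceptor gene Bambi, the inhibitory Smad gene Smad6, the ligand genes Bmp2 and Bmp4, the receptor gene Bmpr1a and the antagonist gene Grem1. Of these 10 genes, 9 had a ratio in both of the authors' deposited tables, which hold 18971 genes for JICD1 and 19287 for NICD1. Bmp2 matched no entry of either table and was not analysed here. The cells were cultured mouse brain astrocytes grown in serum, and all 3 groups are labelled Ink4a-/-, a deletion in a locus that restrains the cell cycle. They had been transfected with pcDNA puro, an empty vector (control), with pcDNA HA-JICD1 puro, which encodes the HA-tagged intracellular part of the Notch ligand Jagged1, or with pcDNA NICD puro, which encodes the intracellular part of the receptor Notch1. Each group had 3 RNA-seq libraries, and no source used here gives the time after transfection or says whether libraries came from separate cultures.

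BMP ligands bind a pair of receptor serine kinases on the cell surface, and the activated receptor phosphorylates SMAD1, SMAD5 and SMAD9, which enter the nucleus with SMAD4 and bind DNA. The Id genes are among the best known direct targets. Their products are helix-loop-helix proteins without a DNA-binding region, which pair with E proteins such as TCF4 and keep them from activating genes. BMP signals and Id proteins are known in the brain for favouring astrocyte over neuron fate and for keeping stem-like glia in an undifferentiated state. Secreted antagonists such as GREM1 hold the ligand away from its receptor, BAMBI resembles a receptor but lacks a kinase domain, and SMAD6 blocks the signal inside the cell. Several of these inhibitors are themselves BMP targets.

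The deposited tables give 1 log2 ratio of a transfected group over control per gene and 1 score, headed Probability, that runs from 0 to 1. The tables used here hold no values for single libraries, so the ratios carry no replicate error, no test and no p-value, and the depth is unknown. A gene with a score of 0.8 or more is called scored. Where a gene is called higher or lower, only the sign of its ratio is meant. In the authors' deposited tables Jag1 itself stood at -1.39 for JICD1 and 1.36 for NICD1, and Notch1 at 1.33 and 1.77. The JICD1 group is therefore named by its label throughout, since Jag1 did not follow it. Notch1 was above control in both groups. Whether RNA of either construct is counted in these ratios was not tested, so they settle neither label. Cdkn2a, the gene of Ink4a, had a ratio for NICD1 alone, at 7.59 (score 0.827) in the authors' deposited table, with a control at the floor by inference. RNA was thus assigned to Cdkn2a in the NICD1 libraries although all groups are labelled Ink4a-/-. No source used here says whether that RNA lies outside the deleted part, so whether it conflicts with the label cannot be told. Among 10 astrocyte markers, 9 had a ratio in each of the authors' deposited tables, with medians of -0.59 for JICD1 and -0.69 for NICD1. Of these 9, 4 lay above 0 for JICD1 and 3 for NICD1, with 1 scored higher and 1 lower for JICD1 and 2 lower for NICD1. Over all genes, 1.07% were scored higher and 1.74% lower for JICD1, and 1.64% and 0.97% for NICD1. The 9 astrocyte markers ranged from -3.88 (Clu) to 3.77 (Nfia) for JICD1 in the authors' deposited table. For NICD1 they ranged from -2.30 (Clu) to 2.98 (Slc1a2, its control at the floor by inference) in the authors' deposited table. The astrocyte filament gene Gfap stood at -1.36 (score 0.242) and -1.52 (score 0.261) in the authors' deposited tables, and the water channel gene Aqp4 matched no entry. Fibroblast and pericyte markers had medians of -2.17 and -1.23 over 7 genes in the authors' deposited tables. Of these 7, 4 were scored lower and 0 higher for JICD1, and 2 higher and 1 lower for NICD1. Microglia markers had medians of -0.36 and 0.88 over 8 genes in the authors' deposited tables, with 1 scored lower for JICD1. Endothelial markers had medians of -0.43 and 0.84 over 6, and oligodendrocyte markers -0.47 and 0.18 over 6, with 0 scored. Neuron markers had the highest medians of these lists, at 0.67 over 6 genes for JICD1 and 2.76 over 5 for NICD1 in the authors' deposited tables. In the authors' deposited table for NICD1, 3 of those 5 were scored higher, against 1.64% of all genes. These were Map2 (3.95), Gap43 (3.96) and Stmn2 (2.76) in the authors' deposited table, while Tubb3 (-3.67) was scored lower. For JICD1 Map2 (3.02) was scored higher and Tubb3 (-2.16) lower, and Stmn2 stood at -2.84, in the authors' deposited table. Whether a change in cell makeup plays a part in the values below was not tested, and in bulk RNA fewer cells of a type and less RNA per cell cannot be told apart.

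Promoter sequences are shown for 4 genes: Id3 and Id4, the Id genes with a log2 ratio of 1 or more for NICD1, Id2, whose ratio was below 0, and Smad6, whose sequence holds a perfect SMAD palindrome. Each runs from 250 bases before to 20 bases after the gene's start in RefSeq (GRCm38.p6), 5′ to 3′ on the gene's strand. For Id2, Id3 and Id4 this start differs from that of the gene span given further below, which comes from another annotation, GENCODE. Motif distances therefore hold for the RefSeq start only. Capitals mark matches on either strand to 3 motifs, namely the SMAD palindrome GTCTAGAC, the GC-rich element GGCGCC bound by BMP-activated SMADs, and TGGGAA, the core of the site of RBPJ, the DNA-binding partner of the Notch intracellular domain. These motifs do not overlap each other in the sequences shown.
Id2, chr12:25096073-25096342, minus strand: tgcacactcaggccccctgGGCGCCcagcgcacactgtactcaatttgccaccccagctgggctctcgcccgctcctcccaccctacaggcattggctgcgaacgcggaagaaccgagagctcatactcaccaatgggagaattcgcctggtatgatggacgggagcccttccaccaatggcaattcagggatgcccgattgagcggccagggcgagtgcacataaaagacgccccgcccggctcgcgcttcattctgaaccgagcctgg
Id3, chr4:136143572-136143841, plus strand: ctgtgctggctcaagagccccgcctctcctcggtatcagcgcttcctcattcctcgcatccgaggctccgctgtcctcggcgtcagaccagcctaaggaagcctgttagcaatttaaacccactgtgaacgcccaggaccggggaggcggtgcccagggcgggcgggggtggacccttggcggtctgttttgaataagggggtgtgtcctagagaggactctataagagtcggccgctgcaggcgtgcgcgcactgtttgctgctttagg
Id4, chr13:48260866-48261135, plus strand: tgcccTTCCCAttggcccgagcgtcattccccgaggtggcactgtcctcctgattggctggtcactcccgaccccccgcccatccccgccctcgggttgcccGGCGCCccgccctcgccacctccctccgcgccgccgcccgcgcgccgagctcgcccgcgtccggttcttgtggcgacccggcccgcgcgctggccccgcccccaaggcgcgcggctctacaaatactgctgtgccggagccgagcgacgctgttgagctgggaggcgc
Smad6, chr9:64022040-64022309, minus strand: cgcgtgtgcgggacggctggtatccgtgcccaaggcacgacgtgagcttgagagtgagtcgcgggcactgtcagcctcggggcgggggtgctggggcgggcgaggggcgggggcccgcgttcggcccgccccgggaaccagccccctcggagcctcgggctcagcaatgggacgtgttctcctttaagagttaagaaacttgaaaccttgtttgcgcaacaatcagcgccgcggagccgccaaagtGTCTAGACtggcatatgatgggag

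The Id4 window holds 1 TGGGAA match, read on the opposite strand and beginning 245 bases before the start, and 1 GGCGCC match, beginning 148 bases before it. Id2 has 1 GGCGCC match beginning 231 bases before the start, and the Id3 window holds no match to any of the 3 motifs. In Smad6 the palindrome begins 4 bases before the start and spans it. The palindrome is rare, occurring in 0.183% of 32817 promoter windows of the same length, whereas GGCGCC occurs in 10.4% and TGGGAA in 23.1%. Smad6 was picked for display because of its palindrome, after the 3 motifs had been searched in 7 promoters. The rarity is therefore a description and no test. Promoters of 7 of the 10 genes were searched, and those of Id1, Bambi and Bmp2 were not. Besides Id2 and Id4, GGCGCC is present once in the windows of Bmpr1a and Grem1, and TGGGAA once in that of Bmpr1a. The 4 windows shown are from 61.9% (Id3) to 75.2% (Id4) G or C, against a median of 52.6% over all windows. The share over all windows is thus no matched background for GGCGCC. The window of Bmp4 holds none of the motifs. Such matches are descriptions of letters and do not show binding.

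In the libraries labelled JICD1, Bambi was far above control while the Id genes stayed near it. None of the 9 measured genes was scored in the authors' deposited table for JICD1, where 2.81% of all genes were scored. Bambi was the only one of the 9 with an absolute log2 ratio of 1 or more in the authors' deposited table, against 28.9% of all genes. The other 8 lay within a log2 of 0.6 of control, 1 above 0 and 7 below. The median of the 9 was -0.14 against 0.05 for all genes of the authors' deposited table for JICD1, of which 54.5% lay above 0. At a lower score of 0.7 only Grem1 was called, against 8.61% of all genes of the authors' deposited table for JICD1, and at 0.9 none was, against 0.659%. Their values and those of the second comparison are plotted by gene.

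**Figure D1:**
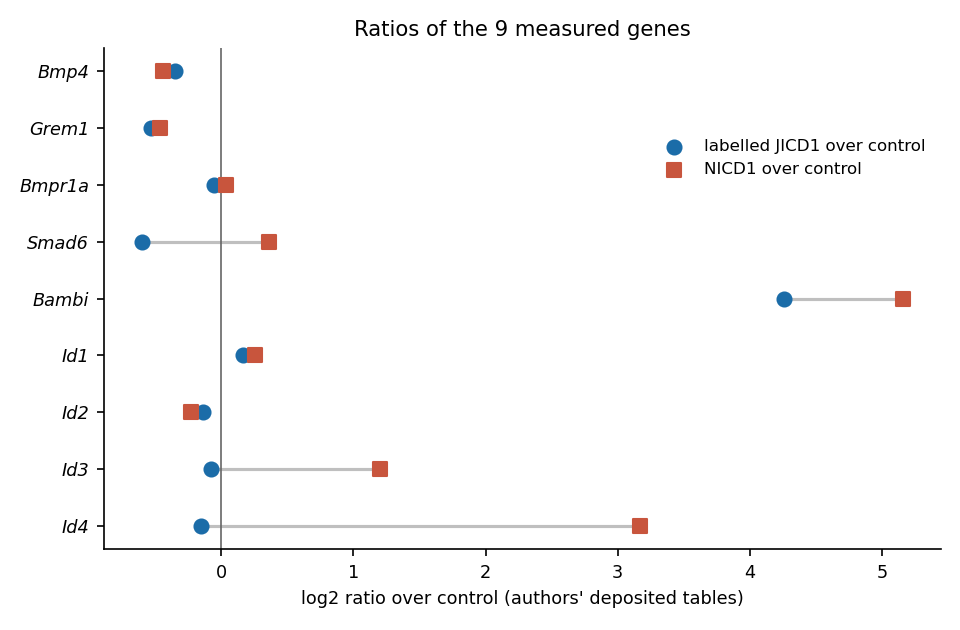
Log2 ratio over control (horizontal axis) of the 9 measured genes, ordered by role from ligand to target, with 1 point per gene and table. Circles are the libraries labelled JICD1 and squares the NICD1 libraries, joined by a line per gene. Bambi is to the right in both tables, while Id3 and Id4 stand at 1.20 and 3.17 for NICD1 and near 0 for JICD1.

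Among the genes of the signal itself, Bmp4, the measured ligand, stood at -0.35 (score 0.539) in the authors' deposited table for JICD1, a level 1.27-fold lower than control. Grem1, which encodes the secreted antagonist gremlin, stood at -0.53 in the authors' deposited table for JICD1 (1.45-fold lower), and its score of 0.716 was the largest of the 9. Bmpr1a, the type I receptor gene, was close to control at -0.05 (score 0.245) in the authors' deposited table for JICD1. So the ligand and its antagonist were both slightly below control, and the receptor was level with it.

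Of the inhibitors inside the cell or in its membrane, Smad6 stood at -0.60 (score 0.398) in the authors' deposited table for JICD1, 1.52-fold lower than control. Bambi stood at 4.26 (score 0.575), 19.1-fold higher in the authors' deposited table for JICD1. Only 2.03% of genes had a larger absolute ratio in the authors' deposited table for JICD1, but 19.7% had a higher score. A large ratio with a middling score thus set Bambi apart from the other 8 genes by size of ratio and not by score, as the plot of ratio against score shows.

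The Id genes, the targets at the end of the pathway, spread over a narrow range in the libraries labelled JICD1. Id1 stood at 0.17 (score 0.405), and Id2 at -0.14 (score 0.378), in the authors' deposited table for JICD1. Id3 stood at -0.08 (score 0.277) and Id4 at -0.15 (score 0.166) in the authors' deposited table for JICD1. The 4 genes ranged from 1.12-fold higher, for Id1, to 1.11-fold lower, for Id4, in the authors' deposited table for JICD1. With no replicate error, differences of this size among them cannot be ordered.

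With NICD1, the pattern was a split within the Id family, beside an even larger Bambi ratio. Id3 was the single scored gene of the 9, at 1.20 (score 0.822) in the authors' deposited table for NICD1, where 2.61% of all genes were scored. Id3, Id4 and Bambi had absolute log2 ratios of 1 or more in the authors' deposited table for NICD1, which is 3 of 9 genes against 28.7% of all genes. That share is near the background. At a score of 0.7 Id3, Bambi and Grem1 were called, against 7.82% of all genes of the authors' deposited table for NICD1, and at 0.9 none, against 0.612%. Of the 9 genes, 6 lay above 0 and 3 below, with a median of 0.26 against -0.02 for all genes of the authors' deposited table for NICD1, of which 48.5% lay above 0.

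Id4 stood at 3.17 (score 0.685) in the authors' deposited table for NICD1, 9.00-fold higher than control, and 7.25% of genes had a larger absolute ratio. Id3 was 2.30-fold higher in the authors' deposited table for NICD1; 25.4% of genes had a larger absolute ratio but only 2.07% a higher score. Id3 and Id4 thus ranked in opposite order by ratio and by score. Id1 stood at 0.26 (score 0.521, 1.20-fold higher) and Id2 at -0.23 (score 0.499, 1.17-fold lower) in the authors' deposited table for NICD1. Both lay close to control, on opposite sides of it.

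Bambi stood at 5.16 (score 0.727) in the authors' deposited table for NICD1, 35.7-fold higher than control, and 1.41% of genes had a larger absolute ratio. None of the ratios of 1 or more for Bambi, Id3 and Id4 lay where the tables place genes with a group at a common floor (an inference described under the processing and not applied to smaller ratios), so folds are given. Smad6 stood at 0.36 (score 0.355, 1.29-fold higher) in the authors' deposited table for NICD1. Of Bambi and Smad6, then, the membrane pseudoreceptor gene had the far larger ratio.

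Bmp4 stood at -0.44 (score 0.608, 1.36-fold lower) in the authors' deposited table for NICD1, and Grem1 at -0.46 (score 0.702, 1.38-fold lower). Bmpr1a stood at 0.04 (score 0.221) in the authors' deposited table for NICD1. The ligand, the antagonist and the receptor therefore had nearly the same ratios in both tables. The 2 comparisons share the control libraries, so agreement between their ratios is no independent support.

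**Figure D2:**
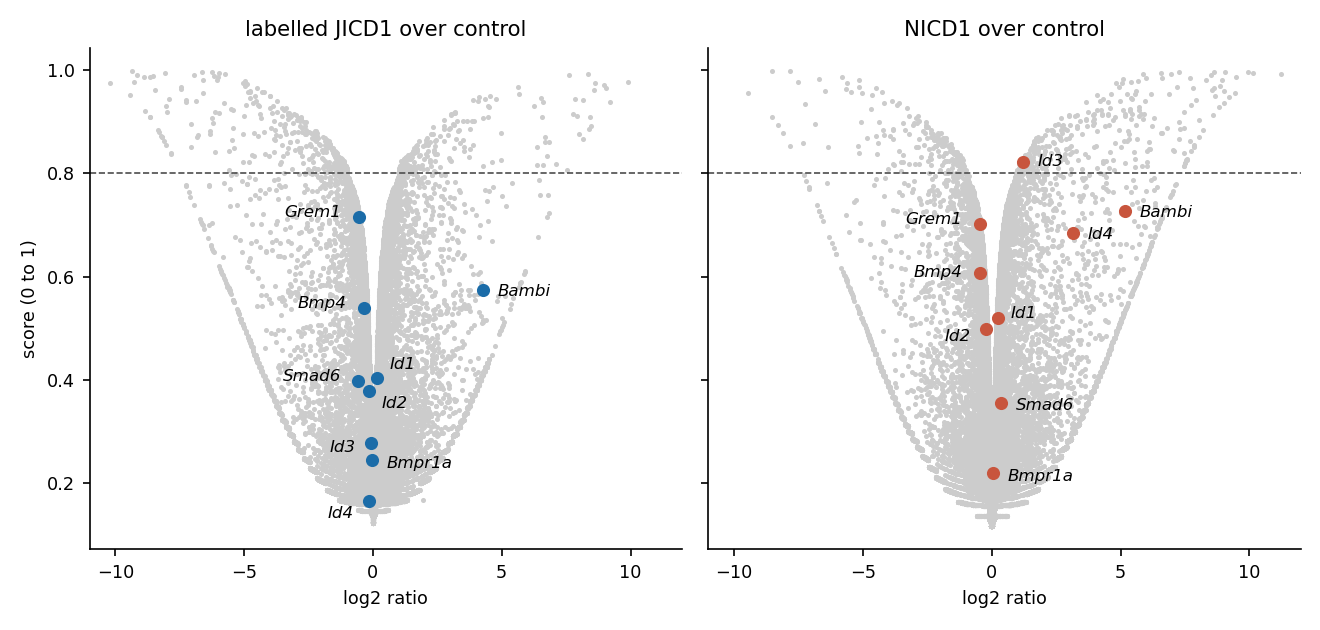
Score (vertical axis, 0 to 1) against log2 ratio over control (horizontal axis) for each gene of the deposited tables, labelled JICD1 on the left and NICD1 on the right. Grey points are all genes, coloured points the 9 measured genes, and the dashed line is the score of 0.8. Id3 in the NICD1 panel (1.20, score 0.822) is the coloured point above the line.

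Subtracting the deposited ratios compares the libraries labelled JICD1 with the NICD1 libraries. Id4 and Id3 were lower in the libraries labelled JICD1 than with NICD1 by differences of -3.32 and -1.28 on the log2 scale, from the authors' deposited tables, or 10.0-fold and 2.42-fold higher with NICD1. They were the 2 of the 9 genes that differed by a log2 of 1 or more, against 24.2% of the 18182 genes in both of the authors' deposited tables. On the side where NICD1 was higher, 13.6% of those genes differed by as much. Smad6 at -0.96 and Bambi at -0.90 came next in the authors' deposited tables, just short of that size. At a difference of 0.5 these 4 genes were called, against 44.6% of all genes in both tables, and at 2 Id4 alone, against 10.7%. At each of these sizes the count in either direction is near the share over all genes. For Id4, 4.47% of genes had a larger absolute difference in the authors' deposited tables, and for Id3 19.0%.

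The remaining 5 genes hardly differed between the tables. Their differences from the authors' deposited tables were -0.09 for Id1, 0.09 for Id2, 0.09 for Bmp4, -0.09 for Bmpr1a and -0.07 for Grem1. At least 82.3% of genes had a larger absolute difference than any one of these 5 in the authors' deposited tables. The difference has no score and no test. No difference above 0 reached a log2 of 0.1 among the 9 genes, so all 4 of the larger differences lay on the NICD1 side. Their number is near the share over all genes, and the share on that side alone was not computed at this size.

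**Figure D3:**
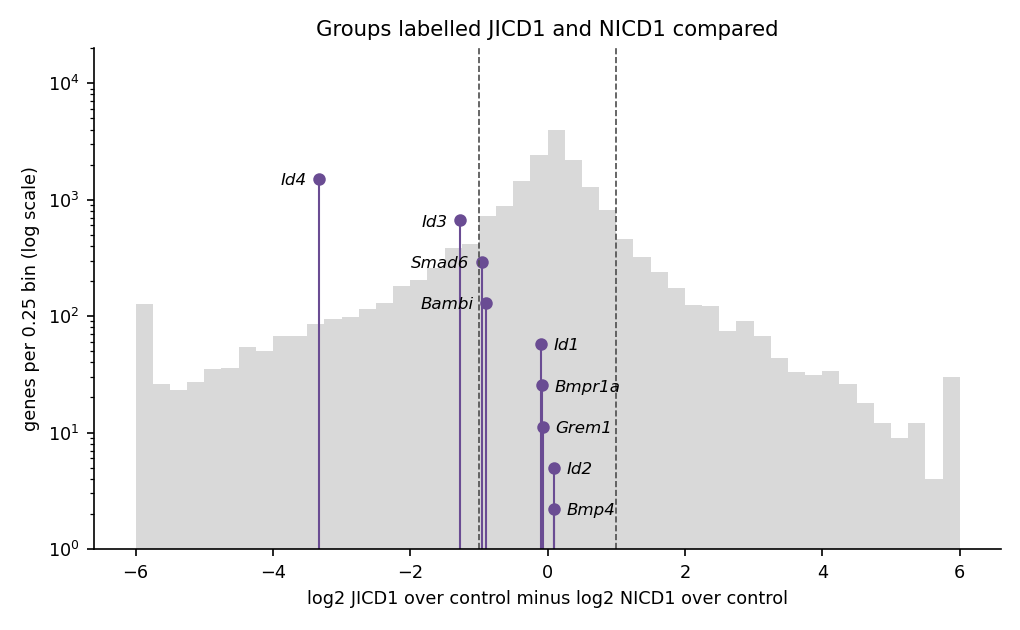
Grey bars count the genes in both tables (vertical axis, log scale) by the log2 ratio of the libraries labelled JICD1 minus that of NICD1 (horizontal axis, bins of 0.25, values beyond 6 gathered in the end bins). Each purple stem is 1 of the 9 measured genes; the height of a stem only separates the names, and dashed lines mark a difference of 1. Id4 at -3.32 and Id3 at -1.28 lie outside the lines and the other 7 inside.

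The deposited entries differ in which transcript they describe, and this bears on how the gene values can be read. Of the 9 measured genes, all but Bambi were examined for this. Of those examined, 6 carry the description of 1 Ensembl transcript on GRCm38 in the authors' deposited tables. For Smad6 (chr9:63953076-64022059, minus strand) that is a single-exon coding transcript of 273 bases at the start of the gene (chr9:64021760-64022032), where the gene spans 68984 bases. For Id3 (chr4:136143497-136145755, plus strand) it is a non-coding processed transcript of 2 exons and 277 spliced bases in the later part of the gene (chr4:136144974-136145755). Bmp4 (chr14:46383520-46390669, minus strand) is described by a transcript with a retained intron (chr14:46386996-46390535). The descriptions of Id1 (chr2:152736251-152737410, plus strand) and Grem1 (chr2:113746164-113758646, minus strand) span the whole gene, and that of Bmpr1a (chr14:34410734-34503341, minus strand) covers a coding transcript of 5 exons (chr14:34443933-34502528). Id2 (chr12:25093799-25097140, minus strand) and Id4 (chr13:48261228-48266026, plus strand) are named by symbol alone. Whether the ratios of Id3 and Smad6 count reads over the whole gene or over these short transcripts is stated in no source used here.

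The rest of the pathway was read from lists of 57 further genes, of which 39 had a ratio in the authors' deposited table for JICD1 and 44 in that for NICD1. In the libraries labelled JICD1, 12 of the 39 lay above 0, against 54.5% of all genes. There 1 was scored higher and 2 lower, against 1.07% and 1.74% of all genes, and their median was -0.27 against 0.05 for all genes of the authors' deposited table. With NICD1, 24 of the 44 lay above 0, against 48.5% of all genes. There 3 were scored higher and 1 lower, against 1.64% and 0.97% of all genes, and their median was 0.09 in the authors' deposited table. These shares over all genes are also the background for the scored counts of the single lists below.

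Among 13 ligand genes, 8 had a ratio for JICD1 and 9 for NICD1, none of them scored, with medians of -1.21 and -0.61 in the authors' deposited tables. By inference, 2 of these 8 and 4 of these 9 had a group at the floor. Receptors and co-receptors were nearer to control, with medians of -0.14 and 0.04 over 9 genes in the authors' deposited tables. Bmpr2, the type II BMP receptor gene, stood at -0.14 (score 0.314) and 0.59 (score 0.663) in the authors' deposited tables, in the order JICD1 and NICD1 as in all pairs that follow. Acvr1, another type I receptor gene, stood at -0.59 (score 0.681) and 0.18 (score 0.452) in the authors' deposited tables. Acvrl1, a type I receptor gene named after its values were seen, had the largest NICD1 ratio of the list, at -0.38 (score 0.160) and 4.17 (score 0.684) in the authors' deposited tables, 18.0-fold higher with NICD1 than control. The scored gene of this list was Rgma, a BMP co-receptor, at -0.27 and -1.37 (score 0.816 with NICD1) in the authors' deposited tables.

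The Smad genes and the Smurf ubiquitin ligase genes held no scored gene, with medians of -0.31 and 0.09 over 8 genes in the authors' deposited tables. The signal-carrying Smads were near control: Smad1 stood at -0.10 and -0.23, and Smad5 at 0.01 and 0.18, in the authors' deposited tables. Smad4, the common partner, stood at 0.02 and -0.07 in the authors' deposited tables. Smad9 had larger ratios of -2.18 and 2.42, with scores of only 0.234 and 0.411 in the authors' deposited tables. Smad7, the other inhibitory Smad gene, resembled Smad6, at -0.85 (score 0.690) and 0.12 (score 0.323) in the authors' deposited tables. Both inhibitory Smads were thus below control in the libraries labelled JICD1 and above it with NICD1, with differences of -0.97 for Smad7 and -0.96 for Smad6 in the authors' deposited tables.

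The 3 scored pathway genes for JICD1 were all antagonists. In that list 10 of 16 genes had a ratio in the authors' deposited table for JICD1. Of these, 1 was scored higher and 2 lower, against 1.07% and 1.74% of all genes. The median was -0.42, and 0.25 without the 2 genes inferred to have a group at the floor in the authors' deposited table, so the sign of the median turned. Fstl1, a secreted follistatin-like glycoprotein, stood at -2.99 (score 0.912) and 0.79 (score 0.774) in the authors' deposited tables, a difference of -3.78. Nbl1, the DAN family antagonist, stood at -2.26 (score 0.867) and -0.81 (score 0.742) in the authors' deposited tables. Fst, the activin and BMP binding protein follistatin, was above control in both tables, at 1.21 (score 0.810) and 0.85 (score 0.753) in the authors' deposited tables.

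With NICD1, 14 of the 16 antagonists had a ratio, and the median was 0.82 in the authors' deposited table. There 1 was scored higher, against 1.64% of all genes. That gene was Bmper, a secreted modulator of BMP activity, at 0.82 (score 0.508) and 2.64 (score 0.865) in the authors' deposited tables. Nog, which encodes noggin, had a ratio for NICD1 alone, at 3.62 (score 0.342) in the authors' deposited table. By inference its control was at the floor, so no fold is given. Bambi belongs to this list and to the targets. Chrdl1, an antagonist gene named after its values were seen, had the largest NICD1 ratio of the list. It stood at 5.23 (score 0.539, 37.4-fold higher) in the authors' deposited table for NICD1 and had no JICD1 ratio.

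Of 12 target genes, 10 had a ratio in the authors' deposited table for JICD1, with a median of -0.12. None was scored, against 2.81% of all genes. In the authors' deposited table for NICD1, 11 had a ratio, with a median of 0.31. There 2 targets were scored higher, against 1.64% of all genes. This list includes Id1, Id2, Id3, Id4, Bambi and Smad6, so its medians are largely those genes counted again. The 2 scored genes were Id3, already described, and Msx2, a homeobox gene, which stood at 7.84 (score 0.851) in the authors' deposited table for NICD1. Msx2 had no JICD1 ratio, and by inference its control was at the floor. Among 46 list genes with a ratio in both of the authors' deposited tables, the 3 nearest to Id1 by Euclidean distance over its 2 ratios were Smad5 (0.17), Runx2 (0.27) and Msx1 (0.28). With 2 ratios per gene, such nearness says only that all were close to control.

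The partners of Id proteins and other helix-loop-helix genes had a ratio for 6 of 10 genes for JICD1 and 5 for NICD1, with medians of -0.49 and 0.98 in the authors' deposited tables. For JICD1 1 of the 6 lay above 0, and by inference its control was at the floor. With NICD1 3 of the 5 lay above 0 and 2 below, and the median is the value of Tcf4 itself. Tcf4, an E protein gene, stood at -0.45 (score 0.639) and 0.98 (score 0.796) in the authors' deposited tables, a difference of -1.43. The other E protein genes, named after their values were seen, were below control in both, with Tcf3 at -0.53 and -0.30 and Tcf12 at -0.13 and -0.41 in the authors' deposited tables. The scored gene was Hes1, a Notch target, at -0.54 (score 0.611) and 1.58 (score 0.846) in the authors' deposited tables. Hey1, also named after its values were seen, stood at -1.84 (score 0.419) and 2.19 (score 0.709) in the authors' deposited tables.

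**Figure D4:**
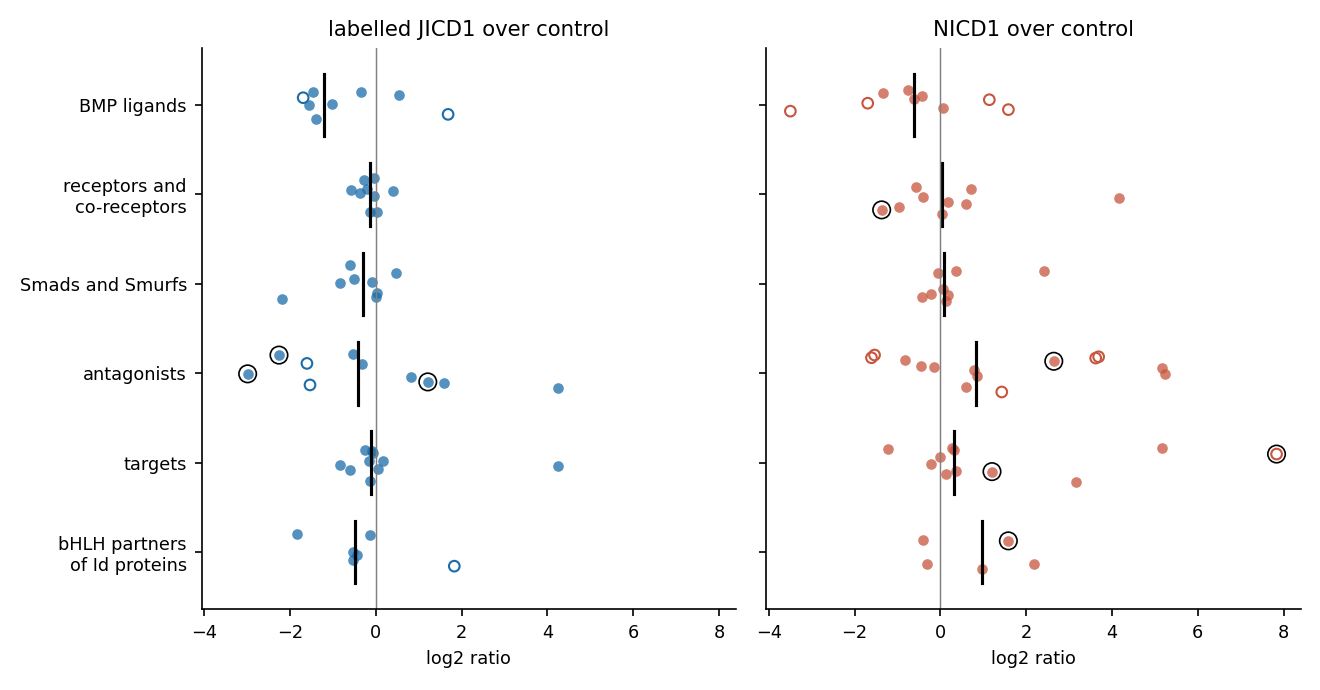
Log2 ratio over control (horizontal axis) of the genes of 6 lists, labelled JICD1 on the left and NICD1 on the right, 1 point per gene with random vertical spread. Open points are genes inferred to have a group at the floor, black rings mark scores of 0.8 or more and black bars are list medians. Rings lie on 3 antagonists for JICD1, and on Rgma, Bmper, Id3, Msx2 and Hes1 for NICD1.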

How the data were processed

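RNA-seq libraries of 3 control, 3 JICD1 and 3 NICD1 samples were summarised in 2 tables of the authors' own comparisons. Each deposited table holds a log2 ratio over control and a score called Probability, per the file headers; the score's method is not stated, and it is not a p-value. The submitters' processing notes name Bowtie2, BWA and mm9, while the tables' descriptions give GRCm38; no source used here states how reads were counted. The members and lists were chosen with earlier results of these data known. Genes were matched by symbol (3 of the 10 genes), NCBI ID (4) or Ensembl ID (2), with Python 3.11.15 and pandas 2.3.3. Named were the 10 genes, 10 further pathway genes, every scored list gene and the 3 genes nearest to Id1. A count test had been planned in case the tables held counts per library; they hold none, so no test was run.

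Floors were inferred. There were 694 genes with equal negative ratios in both deposited tables (tolerance 1e-06), taken to be at one floor in the JICD1 and NICD1 groups alike; genes of absolute log2 of at least 1 on their score curve, within 0.002 (0.01 above a log2 of 6), were placed there too. The step was tried on simulated data whose score was made from the ranks of the ratio and of the difference; whether the authors' score is made so is not stated, so floor calls remain inferences. The tables held 0 unused numeric columns.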

Additional observations from a re-analysis of the deposited data

How the results depend on the processing

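The count of scored genes among the 9 was small and moved with the threshold. For JICD1 it was 0 at a score of 0.8, and 1 at a score of 0.7 (Grem1) or by an absolute log2 ratio of 1 (Bambi). For NICD1 it was 1 at 0.8, 3 at 0.7, 0 at 0.9, 3 by an absolute log2 ratio of 1, and 0 with the tables' own symbols only, since Id3 carries no symbol there. The genes differing between the tables numbered 2 at a log2 of 1, 4 at 0.5 and 1 at 2. With the median difference of all genes subtracted they numbered 3, as Smad6 then reached 1. Without genes at the inferred floor the antagonist median for JICD1 turned from -0.42 to 0.25; the other 11 list medians moved by less than 0.1. Subtracting the median of all genes moved none of the 18 ratios of the 9 genes by 0.1 or changed its sign. No paired analysis was possible because the tables hold no value per library; for the same reason left-out replicates, a second count tool and a count filter were not run. Precision and depth are unknown.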
